A study of Oryza sativa with 4 samples.

Results

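The 10 rice genes described here cut sucrose or carry it and its products across membranes: the sucrose synthases SUS1, SUS2, SUS3 and SUS4, the cell wall invertase GIF1/CIN2, a neutral invertase-like gene, the sucrose transporter SUT1, and the sugar transporters SWEET4, SWEET11 and SWEET14. They were taken by locus identifier, and all 10 were found among the 55986 loci of the expression table. The neutral invertase-like gene was included for an OsGRF6-GFP peak near it, and all 10 were chosen with earlier results of these data known.

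The series asked which genes OsGRF6, a growth-regulating factor targeted by the microRNA miR396, regulates in rice. It held 4 libraries, 1 in each of 4 groups. The MIM396 RNA library was made from panicles (inflorescences) of plants with the p35S:MIM396 transgene, in which the constitutive 35S promoter drives a decoy RNA that sequesters miR396. The wild-type RNA library came from panicles of Yutai B, and both were labelled as taken while secondary branches developed. An OsGRF6-GFP ChIP library, precipitated with anti-GFP, and a ChIP input library were made from callus (undifferentiated cells in culture) of p35S:GRF6-GFP lines, so binding was measured under a constitutive promoter and in another tissue than the RNA. Whether the panicles of several plants were pooled is not stated in the labels. With 1 library a group there is no replicate error and no test of genotype, so each value below describes single libraries.

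The MIM396 library held 13125593 recovered reads and the wild-type library 16337526. The labelled tissue was checked with marker loci listed from general knowledge. Of 18 panicle and meristem loci, 14 reached 1 FPKM in MIM396 and 5 in wild type, and 0 of them lacked reads in MIM396 against 8 in wild type. The meristem homeobox gene OSH1 had 134.2 FPKM in MIM396 and no read in wild type. The 18 loci summed to 494.0 FPKM in MIM396 and 135.1 FPKM in wild type. LOC_Os03g54160 gave 110.8 FPKM of the sum in wild type and 94.0 FPKM in MIM396. The 12 leaf photosynthesis loci summed to 50.3 FPKM in MIM396, each between 0.134 and 14.8 FPKM, and to 77733 FPKM in wild type, each between 903.7 and 17544 FPKM. They made up 0.00993% of all FPKM in MIM396 and 9.15% in wild type. Most of these markers go against the panicle label of the wild-type library. The 5 grain storage loci were low in both, at 3.37 and 6.18 FPKM in sum. Of 12 loci listed as growth-regulating factors after the data had been seen, the family that miR396 targets, 11 were at least 2-fold higher in MIM396, with sums of 454.3 and 32.4 FPKM. Genotype, tissue make-up and library cannot be told apart here. Fewer cells of a type and less RNA per cell cannot be told apart either.

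Sucrose is the sugar that most plants, rice among them, ship from leaves through the phloem to growing organs. Sink cells use it after cleavage, either by sucrose synthase, a reversible reaction that gives UDP-glucose and fructose, or by invertases, which split it irreversibly into glucose and fructose in the cell wall, the vacuole or the cytosol. SUT proteins move sucrose with protons across membranes, and SWEET proteins let sugars pass down their gradient.

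As a group the 10 genes did not differ in a common direction. A floor of 1 FPKM was set on the mean of both libraries. Of the 9 genes above it, SUS1, GIF1/CIN2 and SWEET11 passed the size limit as higher in MIM396, with log2 ratios of 1 or more, and the neutral invertase-like gene, SUT1 and SWEET14 passed it as lower. SUS2, SUS4 and SWEET4 differed less than 2-fold, and SUS3 lay below the floor. Among all 19456 loci above the floor, 23.1% were at least 2-fold higher in MIM396 and 27.3% at least 2-fold lower, so 3 of 9 in either direction is close to the share in the whole table. The median log2 ratio of the 9 genes was 0.35, also with the genes at 0 in a library set to their bounds, against 0.00 for all loci above the floor. Log2 ratios are of MIM396 over wild type with 1 FPKM added, which understates differences of weakly expressed genes. With the libraries brought to equal totals, 40.2% of loci were higher and 19.0% lower, and every log2 ratio moved up by 0.75 before the added 1 FPKM. When the totals were made equal without the 50 most abundant loci of either library, the shares were 32.4% and 21.8% and the move was 0.45.

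**Figure D1:**
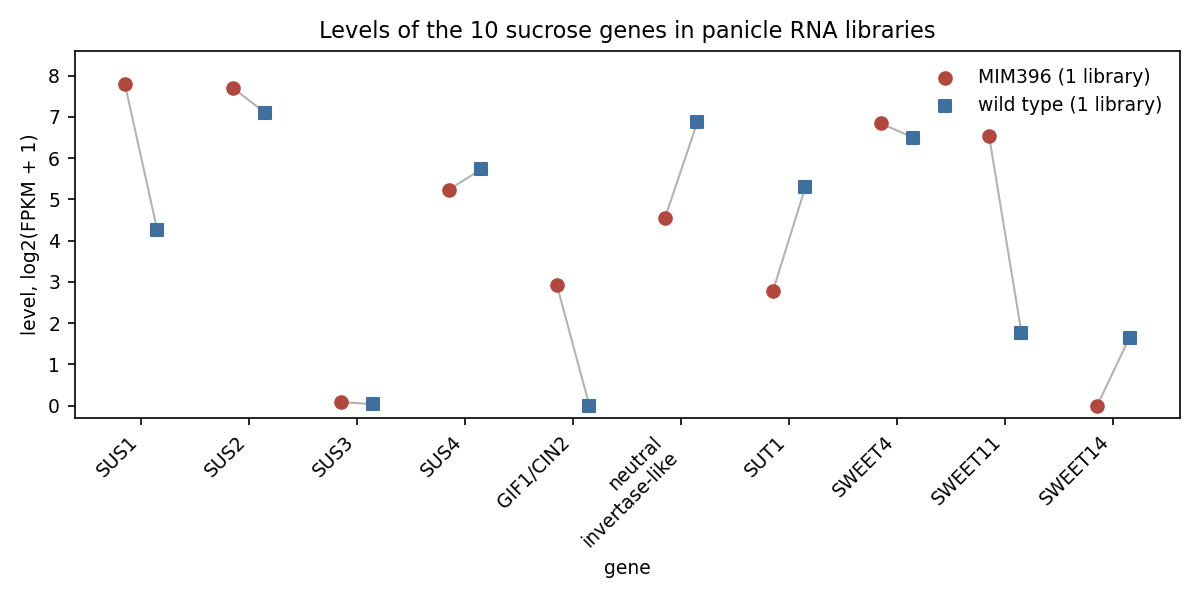
Level of each of the 10 genes as log2(FPKM + 1), with 1 point for the MIM396 library and 1 for the wild-type library, joined by a line. SUS1, GIF1/CIN2 and SWEET11 are higher in MIM396, the neutral invertase-like gene, SUT1 and SWEET14 are lower, and SUS3 is near 0 in both.

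**Figure D2:**
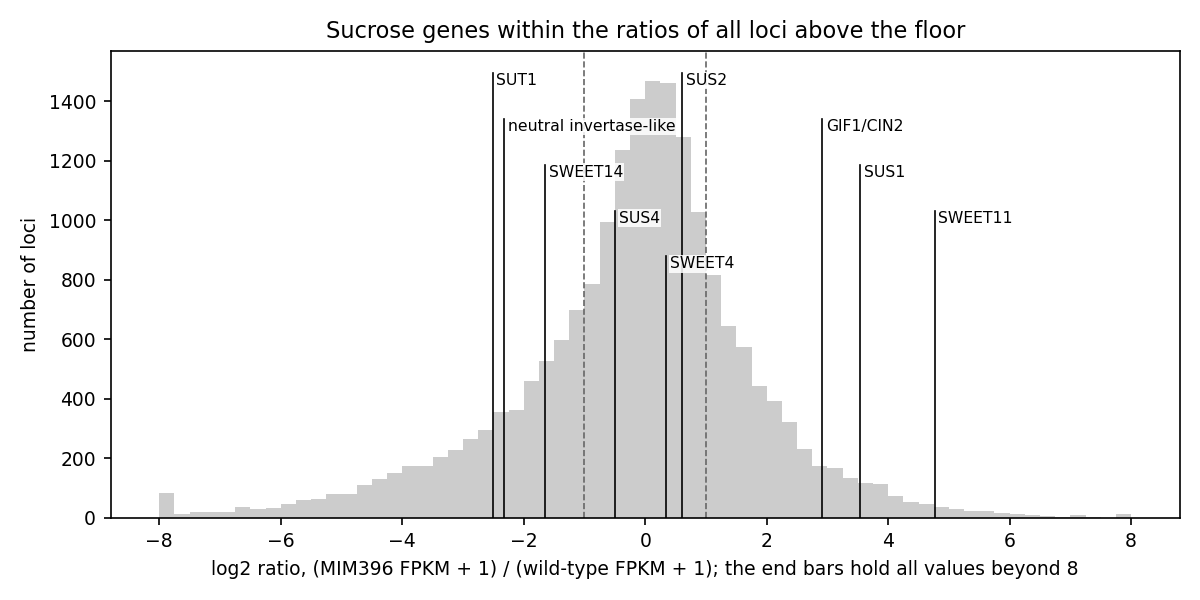
Histogram of log2 ratios of MIM396 over wild type for the 19456 loci above the floor, with black lines at the 9 genes above it and dashed lines at the 2-fold limits. The 9 genes spread over both sides of the histogram, between -2.51 for SUT1 and 4.77 for SWEET11.

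The sucrose synthases differed from each other. SUS1 (LOC_Os03g28330, chromosome 3, 16301276 to 16307632) had 220.4 FPKM in MIM396, from 11645 reads, and 18.02 FPKM in wild type, from 766 reads. It was 12.1-fold higher in MIM396 in scaled reads (95% interval 11.3 to 13.1), a log2 ratio of 3.54. Among all loci it ranked 270th by FPKM in MIM396 and 6554th in wild type. SUS2 (LOC_Os06g09450, chromosome 6, 4796285 to 4804246) had 206.9 FPKM in MIM396 and 135.3 FPKM in wild type, from 11606 and 6027 reads. Its 1.54-fold difference (1.49 to 1.59) stayed under 2-fold with the authors' scaling, while equal totals took its log2 ratio from 0.61 to 1.35. SUS4 (LOC_Os03g22120, chromosome 3, 12674461 to 12680657) had 36.7 FPKM in MIM396 and 52.1 FPKM in wild type, a log2 ratio of -0.49 that equal totals turned to 0.24. No direction is therefore given for SUS4. SUS3 (LOC_Os07g42490, chromosome 7, 25429638 to 25435182), known in rice as a seed-expressed synthase, had 3 reads in MIM396 and 1 read in wild type, 0.0609 and 0.0253 FPKM. At this depth no difference in SUS3 could be detected.

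How the 4 synthases divided their sum does not depend on the scaling between libraries. Together they had 464.1 FPKM in MIM396 and 205.4 FPKM in wild type. SUS1 made up 47.5% of the sum in MIM396 and 8.77% in wild type. SUS2 made up 44.6% in MIM396 and 65.9% in wild type, and SUS4 7.91% and 25.3%. The shares do depend on the measure. In scaled reads, which are not per length, SUS1 made up 46.6% in MIM396 and 8.70% in wild type. SUS2 then made up 46.4% and 68.5%, and SUS4 6.99% and 22.8%. The ratio of SUS1 to SUS2 was 1.06 in MIM396 and 0.133 in wild type, a 7.89-fold difference in reads (7.29 to 8.56). The MIM396 library thus held about as much SUS1 as SUS2 per length, and the wild-type library mainly SUS2. How reads common to similar synthases were counted is not stated in the labels.

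The other listed synthases were weak in both libraries. LOC_Os02g58480 was the only other listed synthase above the floor, with 2.74 FPKM in MIM396 and 0.854 FPKM in wild type, 3.19-fold higher (2.28 to 4.57) and just past the size limit at a log2 ratio of 1.01. It overlaps 1 other locus of the table, so its reads are uncertain. SUS5 and SUS7 lay under the floor, with 44 and 27 reads in MIM396 against 4 and 3 reads in wild type.

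GIF1/CIN2 (LOC_Os04g33740, chromosome 4, 20422170 to 20427062) encodes a cell wall invertase needed for grain filling in rice. It had 6.53 FPKM in MIM396, from 249 reads, and 0 reads in wild type. A count of 0 allows up to 3 reads, which is 0.0985 FPKM for this gene, so GIF1/CIN2 was at least 66.3-fold higher in MIM396. Its neighbour CIN3 (LOC_Os04g33720), 6928 bp away and named here as a neighbour after its values were seen, showed 11 reads in MIM396 and 0 in wild type. The other cell wall invertases above the floor went the other way. CIN1 (LOC_Os02g33110) had 5.19 FPKM in MIM396 and 70.1 FPKM in wild type, 13.4-fold lower in MIM396 (11.6 to 15.6). CIN4 (LOC_Os01g73580) had 2.57 and 30.9 FPKM, 12.1-fold lower (9.80 to 15.1). Over the 6 listed cell wall invertases the sum was 14.6 FPKM in MIM396 and 101.0 FPKM in wild type. GIF1/CIN2 was 44.7% of it in MIM396, while in wild type CIN1 was 69.4% and CIN4 30.6%. The vacuolar invertases, which split sucrose stored in the vacuole, were low in MIM396: LOC_Os04g45290 had 0.354 FPKM there and 8.32 FPKM in wild type, 23.6-fold lower (14.1 to 42.8).

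The neutral invertase-like gene (LOC_Os01g22900, chromosome 1, 12870227 to 12874264) is described in the peak list as similar to a neutral invertase, the invertase type that works without the acid optimum of the wall and vacuolar enzymes. It had 22.5 FPKM in MIM396, from 981 reads, and 116.4 FPKM in wild type, from 4084 reads. It was 5.21-fold lower in MIM396 (4.86 to 5.60), a log2 ratio of -2.32, and -1.60 with equal totals. Per length it was the second most abundant of the 10 genes in wild type, next to SUS2, and the sixth in MIM396. Relative to SUS2 it stood at 0.108 in MIM396 and 0.860 in wild type.

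This gene was the only one of the 10 that the authors placed at an OsGRF6-GFP peak, and it was chosen for that, so the count says nothing about the group. Peak 15 (chromosome 1, 12868176 to 12869259) was 1084 bp wide, against a median of 1182 bp over the 142 listed peaks. It ended 981 bp before the start of the RAP gene model and 968 bp before the start of the locus in the expression table, and the authors placed it within 1 kb upstream. No other gene model was placed at this peak. Only the gene-side end of the peak reached into that window, and the peak came from callus, so its relation to the RNA level was not tested. Of the 147 loci at listed peaks that cleared the floor, 44 (29.9%) passed the size limit as higher in MIM396 and 34 (23.1%) as lower, beside 23.1% and 27.3% of all loci above the floor. Among the 147 the neutral invertase-like gene had the 18th lowest ratio. None of the other 9 genes, nor any of the 44 other listed pathway loci, was placed at a listed peak. The nearest listed peak lay between 146.8 kb away, for GIF1/CIN2, and 2512 kb away, for SWEET11.

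SUT1 (LOC_Os03g07480, chromosome 3, 3797690 to 3804132), a sucrose-proton symporter active in phloem and filling grain of rice, had 5.91 FPKM in MIM396, from 220 reads, and 38.4 FPKM in wild type, from 1150 reads. It was 6.55-fold lower in MIM396 (5.66 to 7.60), a log2 ratio of -2.51, and -1.83 with equal totals. The other sucrose transporters above the floor differed less than 2-fold. SUT2 (LOC_Os12g44380), a vacuolar-membrane transporter in rice, had 24.8 FPKM in MIM396 and 21.4 FPKM in wild type, and SUT4 (LOC_Os02g58080) had 5.39 and 9.02 FPKM. SUT1 was therefore 15.8% of the summed level of 5 listed sucrose transporters in MIM396 and 55.8% in wild type, and SUT2 66.3% and 31.1%. The sums themselves were 37.5 FPKM in MIM396 and 68.9 FPKM in wild type.

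Among the SWEET members, SWEET11 (LOC_Os08g42350, chromosome 8, 26725897 to 26728795) showed the largest ratio of the genes with reads in both libraries. This gene is also known as Xa13, since recessive alleles give resistance to bacterial blight, and it acts in pollen and grain filling of rice. It had 91.5 FPKM in MIM396, from 2374 reads, and 2.40 FPKM in wild type, from 50 reads. It was 37.9-fold higher in MIM396 (28.7 to 51.2), a log2 ratio of 4.77. In rank it stood 853rd in MIM396 and 15561st in wild type. In the authors' deposited table SWEET11 had an FDR of 0.00173, the lowest of the 10 genes, while SUS1 had 0.293 and GIF1/CIN2 0.0876. How many of all loci had so low an FDR was not counted, so these values say nothing about the group.

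SWEET4 (LOC_Os02g19820, chromosome 2, 11592219 to 11596451), which moves hexoses into the growing grain of rice, was high in both libraries. It had 113.4 FPKM in MIM396 and 89.0 FPKM in wild type, from 2856 and 1803 reads. The 1.26-fold difference (1.19 to 1.34) was under 2-fold, and equal totals took its log2 ratio of 0.35 to 1.08. SWEET14 (LOC_Os11g31190, chromosome 11, 18171677 to 18174478), a sucrose transporter that blight bacteria switch on in infected rice leaves, had 0 reads in MIM396 and 43 reads in wild type, 2.14 FPKM. With up to 3 reads allowed in MIM396, 0.119 FPKM, it was at least 17.95-fold lower there. Its mean lay close to the floor of 1 FPKM, and it fell under that floor with equal totals. SWEET11 stood at 0.807 of SWEET4 in MIM396 and 0.0269 in wild type, a 30.0-fold difference in reads (22.5 to 40.7).

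Of the 15 other listed SWEET loci, 10 cleared the floor, of which 2 passed the limit as higher in MIM396 and 8 as lower. Of all loci above the floor 23.1% were higher and 27.3% lower. SWEET15 (LOC_Os02g30910), which acts with SWEET11 in grain filling in rice, had the highest ratio, with 8.59 FPKM in MIM396 and 1.11 FPKM in wild type, 7.71-fold higher (5.01 to 12.4). SWEET6B (LOC_Os01g42090) had the lowest, with 0 reads in MIM396 and 272 reads in wild type, at least 113.5-fold lower. RefSeq holds SWEET6A and SWEET6B as 1 gene, so which of these neighbouring loci carries which name is uncertain. How reads common to both loci were counted is not stated in the labels. SWEET1A (LOC_Os01g65880), named after its values were seen, was the most abundant SWEET in wild type, with 20.1 FPKM in MIM396 and 239.7 FPKM in wild type. Over all 18 listed SWEET loci, SWEET4 and SWEET11 made up 44.0% and 35.5% of the summed FPKM in MIM396, against 18.7% and 0.504% in wild type. SWEET1A made up 7.81% in MIM396 and 50.4% in wild type.

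**Figure D3:**
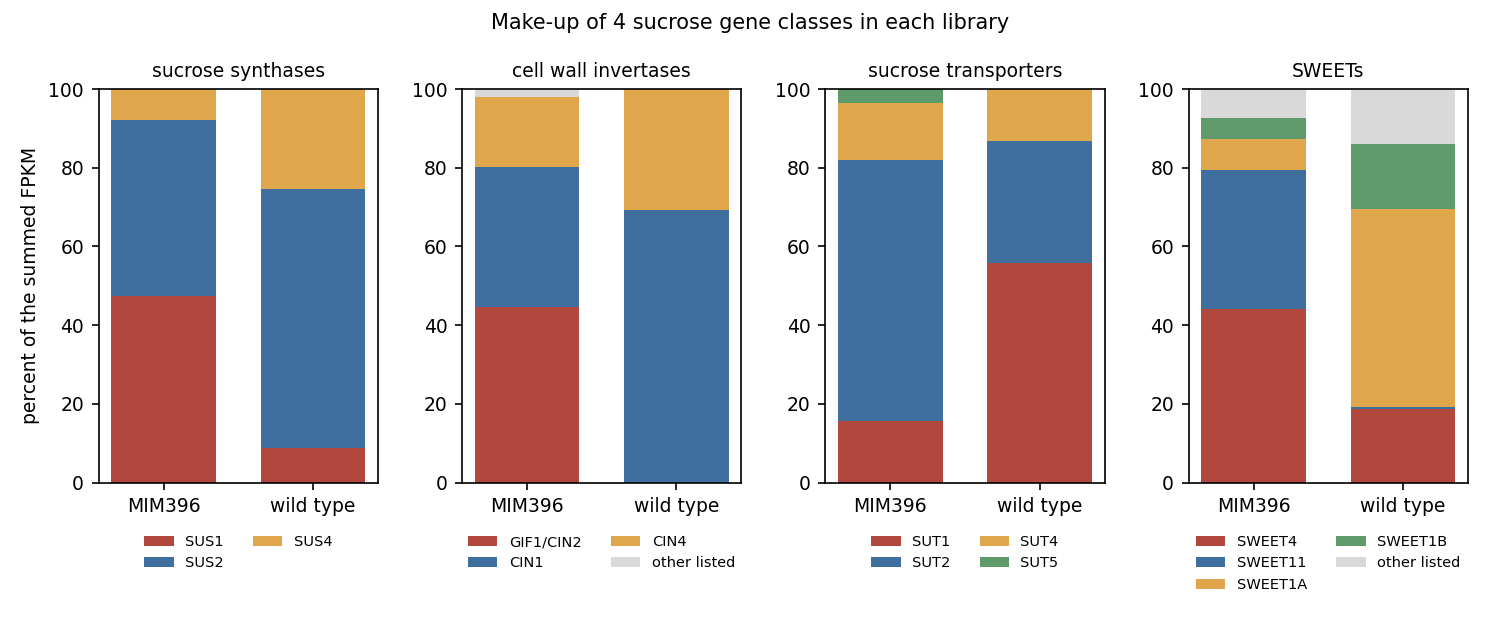
Share of each gene in the summed FPKM of its class, in percent. The left bar is the MIM396 library and the right bar the wild-type library. The SWEET panel covers 18 listed loci. Members never above 1% of a sum, and loci not shown by name, are left out or drawn as other listed. Some of the loci drawn so, such as SWEET15 and SWEET6B, pass 1% of the sum. SUS1, GIF1/CIN2 and SWEET11 take 47.5%, 44.7% and 35.5% of their classes in MIM396, against 8.77%, 0% and 0.504% in wild type.

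Levels could be put in order within each library, since FPKM is per length. In MIM396 the order was SUS1, SUS2, SWEET4, SWEET11, SUS4, the neutral invertase-like gene, GIF1/CIN2, SUT1, SUS3 and SWEET14. By counting error GIF1/CIN2 (5.74 to 7.39 FPKM) and SUT1 (5.15 to 6.74 FPKM) overlapped there. In wild type the order was SUS2, the neutral invertase-like gene, SWEET4, SUS4, SUT1, SUS1, SWEET11, SWEET14, SUS3 and GIF1/CIN2, and SWEET11 (1.78 to 3.16 FPKM) overlapped with SWEET14 (1.55 to 2.88 FPKM). Apart from SUS3 and the genes at 0, the other neighbours did not overlap by counting error in either library, which leaves out any spread between plants.

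The rest of the pathway was read from a list of 44 other loci, whose classes rest on general knowledge. Of these, 28 cleared the floor, with 5 past the limit as higher in MIM396, 15 as lower and 8 neither. As shares, 17.9% were higher and 53.6% lower, beside 23.1% and 27.3% of all loci, and the median log2 ratio was -1.20. The lower ones were 8 SWEET loci, CIN1 and CIN4, the vacuolar invertase LOC_Os04g45290, 2 sucrose-phosphate synthases and 2 hexokinases. With equal totals 9 were higher and 11 lower.

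Sucrose-phosphate synthases make the precursor of sucrose, mainly in leaves, and 3 of the 5 listed differed less than 2-fold. LOC_Os11g12810 had the lowest ratio in the list, with 0.0296 FPKM in MIM396, from 2 reads, and 103.4 FPKM in wild type, from 5593 reads, 3502-fold lower (969 to 28926). In the authors' deposited table its FDR was 3.58e-08, the lowest of the 44 other pathway loci. Next in that list were CIN4 at 0.0236, SWEET16 (LOC_Os03g22200) at 0.0339 and the vacuolar invertase LOC_Os04g45290 at 0.0389, all lower in MIM396. The share of all loci with such an FDR was not counted, so these values say nothing about the list as a whole. LOC_Os06g43630 had the highest ratio of its class, with 18.95 FPKM in MIM396 and 13.5 FPKM in wild type. The leaf photosynthesis markers given above were lower in MIM396. So were 2 of the 5 listed sucrose-phosphate synthases, or 40%, beside 27.3% of all loci above the floor. What part leaf tissue has in these levels was not tested.

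Hexokinases phosphorylate the glucose that cleavage releases. Of 10 listed, 7 were above the floor, 2 of them higher in MIM396, 2 lower and 3 neither. As shares, 28.6% were higher and 28.6% lower, close to the 23.1% and 27.3% of all loci above the floor. LOC_Os01g09460 had the highest ratio, with 14.9 FPKM in MIM396 and 2.50 FPKM in wild type, 5.92-fold higher (4.56 to 7.80). LOC_Os01g53930 had the lowest ratio with 1 FPKM added, with 11.1 FPKM in MIM396 and 27.3 FPKM in wild type, 2.46-fold lower in MIM396 (2.22 to 2.73). Without the added 1 FPKM the lowest was LOC_Os05g44760, 2.58-fold lower (2.16 to 3.07), with 4.06 FPKM in MIM396 and 10.4 FPKM in wild type. LOC_Os01g53930 and LOC_Os05g44760 each overlap 1 other locus of the table, and LOC_Os01g09460 overlaps 0.

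**Figure D4:**
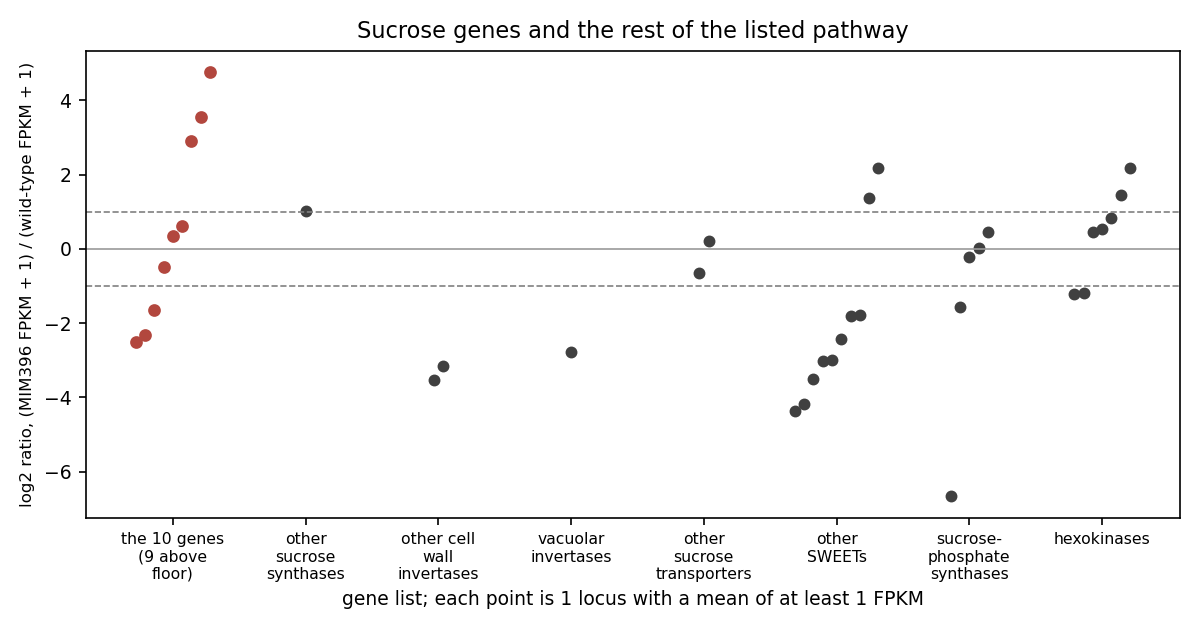
Log2 ratio of MIM396 over wild type for the 10 sucrose genes (red, 9 above the floor) and for the other listed loci by class (dark), each point 1 locus, with dashed lines at the 2-fold limits. The 8 lower SWEET loci and both cell wall invertases lie below the lower dashed line, and LOC_Os11g12810 lies lowest at -6.66.

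Under the scalings tried, SUS1, GIF1/CIN2 and SWEET11 kept a log2 ratio of at least 1, and the neutral invertase-like gene and SUT1 kept one of at most -1. SUS2 passed the limit as higher with equal totals, with or without the 50 most abundant loci, and SWEET4 with equal totals of all loci. TMM scaling, a trimmed mean of ratios, moved all log2 ratios by 0.0068 before the added 1 FPKM.

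**Figure D5:**
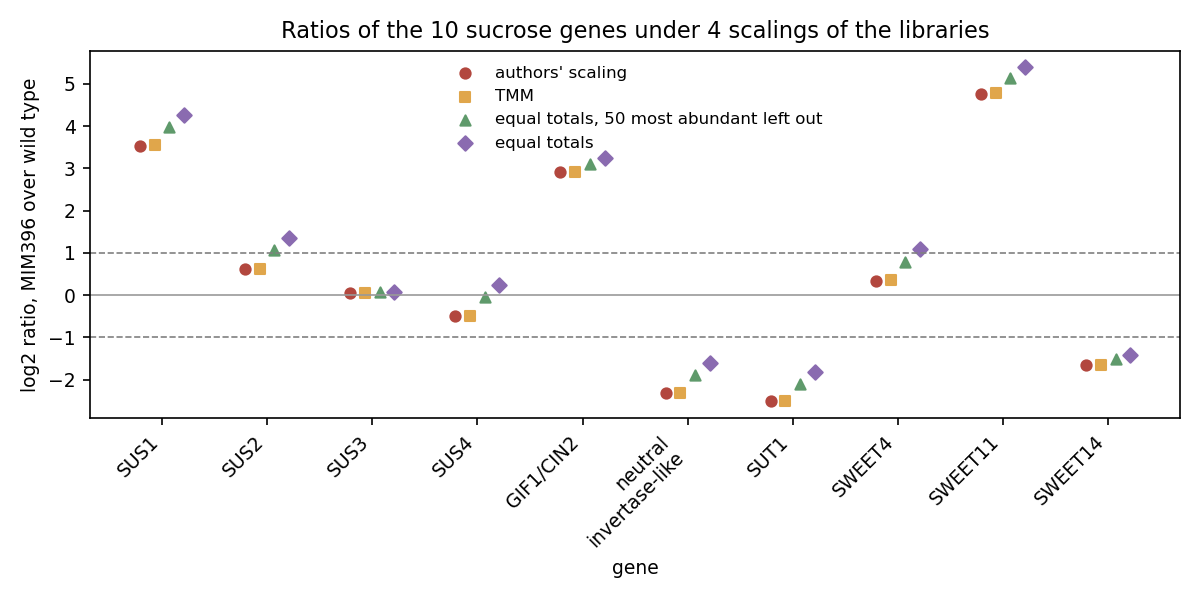
Log2 ratio of MIM396 over wild type for each of the 10 genes with the authors' scaling, TMM, and equal totals with and without the 50 most abundant loci of each library; dashed lines mark the 2-fold limits. SUS4 lies at -0.49 with the authors' scaling and at 0.24 with equal totals, while SUS1, GIF1/CIN2 and SWEET11 stay above the upper line.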

How the data were processed

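The authors deposited 1 expression table for the MIM396 and wild-type panicle RNA libraries and 1 peak list for the OsGRF6-GFP ChIP library. Per the submitters' processing notes FastQC and Bowtie were used; counting tool, genome build and annotation release are not stated in the sources used here. The authors' FPKM values (fragments scaled for locus length and depth) were used as deposited. The deposited signal, named counts in the header, holds reads scaled by the authors with 1 factor per library: with steps of 0.844 in MIM396 and 1.06 in wild type, 99.0% and 97.8% of positive values were whole multiples to within 0.01. Rounding gave 13125593 and 16337526 recovered reads. Scaled reads per FPKM at a locus had a median MIM396 over wild-type ratio of 0.994, so both columns carry the authors' scaling. The deposited FDR is an adjusted p-value whose test no source used here names, and the table's log2 ratios, an other-type column with a filler where a library is at 0, were read as the authors' values only.

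Calls were made by size alone: a log2 ratio of FPKM + 1 of 1 or more, or of -1 or less, where the mean of both libraries reached 1 FPKM. With 1 library per group no test was run. Ratios of scaled reads carry 95% exact conditional binomial (Clopper-Pearson) intervals; reads carry no molecular identifiers, so intervals and floors (3 reads where 0 were seen) cover counting error only. Python 3.11.15, scipy 1.17.1 and matplotlib 3.10.9 were used, and the size limit, intervals and TMM scaling were run on simulated data. The simulated counts held counting error only, with few loci changed. They therefore do not cover spread between plants or libraries as unlike as these. Names were taken from RefSeq (ASM3414082v1) where symbol and chromosome matched and the span lay within 15%, which held for 9 of the 10 genes; the neutral invertase-like gene is named by the peak list. Named loci are all 10 genes and, in each pathway class, the highest and the lowest ratio above the floor; SUS5, SUS7, CIN3, SWEET1A, SWEET16, the hexokinase LOC_Os05g44760 and the neighbouring loci were named after their values were seen. The genes and lists were chosen with earlier results of these data known. The alternatives tried were other scalings, pseudocounts, floors, a stricter fold limit, scaled reads and a narrower peak placement.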

Additional observations from a re-analysis of the deposited data

How the results depend on the processing

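No paired analysis was possible because each group had 1 library, and for the same reason no library could be left out. The median log2 ratio was taken over the genes that cleared the floor in each setting, 0.35 over 9 genes as reported. It was 1.22 over 8 genes with equal totals and 0.92 over 8 without the 50 most abundant loci. SWEET14, a lower gene, fell under the floor in both, so these medians cover a changed set. With no floor it was 0.20 over 10 genes. The number of the 10 genes at least 2-fold higher was 5 in place of 3 with equal totals, through SUS2 and SWEET4. Of the other pathway loci, 5 were higher as reported, 9 with equal totals, 0 with 10 FPKM added, 3 with a floor of 5 FPKM and 2 with a log2 limit of 2; 15 were lower as reported and 7 with 10 FPKM added. Of all loci, 40.2% were higher with equal totals, 9.52% with 10 FPKM added, 8.65% with no floor and 10.4% with a log2 limit of 2, while 14.6%, 10.1% and 15.6% were lower with the last 3 of these. A larger pseudocount and a stricter limit lower such counts by construction, and no floor adds loci at or near 0. SUS1, SWEET11, SUT1 and the neutral invertase-like gene kept their sign under the other scalings, the other pseudocounts and scaled reads; GIF1/CIN2 and SWEET14, each at 0 in a library, could not change theirs. Counts at or near 0 limit GIF1/CIN2, SWEET14 and SUS3. GIF1/CIN2 was no longer past the limit with 10 FPKM added or a floor of 5 FPKM, and SWEET14 with these, with equal totals of either kind or with a log2 limit of 2. The log2 ratio of GIF1/CIN2 ran from 0.72 to 7.72 and that of SWEET14 from -5.54 to -0.28 over the settings.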

Other observations

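The loci next to the 10 genes in the expression table were mostly silent in these libraries, as were most loci of the table. Of all 55986 loci, 24527 had a read in MIM396, 24720 had one in wild type, and 19456 had a mean of 1 FPKM or more. Of 20 immediate neighbours, 13 had no read in either library and 4 had a mean of 1 FPKM or more. Of these 4, 0 passed the size limit as higher in MIM396, 1 as lower and 3 neither. Among all loci above the floor 23.1% were higher and 27.3% lower. The lower neighbour, LOC_Os07g42500, lies 548 bp after SUS3 and had 10.004 FPKM in MIM396 and 21.9 FPKM in wild type. Beside SUS1, LOC_Os03g28310 had 8.28 FPKM in MIM396 and 4.66 FPKM in wild type. SUS4 and SWEET16 (LOC_Os03g22200) lie 48.6 kb apart on chromosome 3, and SWEET16 had 0.276 FPKM in MIM396, from 4 reads, and 9.21 FPKM in wild type, from 140 reads, 43.8-fold lower (16.7 to 163.1).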
